A study of Mus musculus with 4 samples.

Results

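The comparison sets liver RNA taken 3 days after an adenovirus that expressed His-tagged Med1 (Ad-Med1) beside liver RNA taken 3 days after an adenovirus that expressed LacZ, the bacterial beta-galactosidase gene (Ad-LacZ). Its members are the beadarray probes with a detection p-value under 0.01 on at least 1 of these 2 arrays, which were 15585 of the 45281 probes on the array and stood for 9052 of the 19057 genes with a probe. All mice were C57BL6/J, 5.5 weeks old, and carried floxed alleles of the endogenous Med1 gene (Med1fl/fl), and all were injected with a virus through the tail vein, so that the floxed genotype and the infection are shared by test and control. A second pair of arrays, Ad-Med1 and Ad-LacZ at day 5, completes the series. It is used here to describe which day 3 array stood apart from the rest. The subject the submitters gave the series is cell proliferation after Med1 overexpression.

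Each group is 1 array, and the labels do not say whether its RNA came from 1 animal or a pool. There is therefore no replicate error and no p-value: every difference below compares 2 libraries, and "higher" and "lower" describe those libraries. Values are log2 normalized signals, a difference is Ad-Med1 minus Ad-LacZ at day 3 on that scale unless another control is named, and a gene is given by its brightest probe. Where a probe was not detected on the dim array, the fold is a lower bound, taken against the lowest detected signal of that array, and is written as at least that size. Since whole liver was measured, fewer cells of a type and less RNA per cell cannot be told apart.

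The Ad-LacZ day 3 array was the dimmest of the 4. Its mean intensity was 350.2 and it detected 12899 probes, against 925 and 14752 on Ad-Med1 day 3, 475 and 14062 on Ad-LacZ day 5, and 968 and 15294 on Ad-Med1 day 5. It was at least 2-fold below all 3 other arrays in 780 of the 9052 genes (8.62%) and at least 2-fold above them in 212 (2.34%). Ad-Med1 day 3 was at least 2-fold above the other 3 in 150 genes (1.66%) and below them in 64 (0.707%). Of 8 defining hepatocyte markers with a probe, all 8 were detected on Ad-Med1 day 3 and 7 on Ad-LacZ day 3. The undetected one was the albumin probe, dim on all 4 arrays. No cholangiocyte marker of 3 and no adipose marker of 2 was detected on any array. The 1 pancreas marker with a probe, Cela1, was detected on all 4 (10.46 on Ad-Med1 day 3 and 11.70 on Ad-LacZ day 3). In the wider lists, 8 of 17 cholangiocyte genes and 5 of 25 adipose, pancreas and gut genes were detected at day 3.

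The 2 arrays also differed in the sex chromosome transcripts. Xist, the RNA that coats the inactive X chromosome, had a signal of 11.17 on Ad-Med1 day 3 and was not detected on Ad-LacZ day 3. Y-linked Eif2s3y, a translation initiation factor subunit, was not detected on Ad-Med1 day 3 and had 9.52 on Ad-LacZ day 3. Y-linked Uty, a histone demethylase gene, had 6.32 and 7.39, and Y-linked Kdm5d was detected on neither. At day 5, Ad-Med1 carried Xist and Eif2s3y together (9.51 and 10.54), while Ad-LacZ carried Xist (8.15) without Eif2s3y. Other Xist probes ordered the day 5 arrays differently, and 2 of them read 7.52 and 7.61 on Ad-Med1 against 12.15 and 12.28 on Ad-LacZ. Sex and virus therefore cannot be told apart between the day 3 arrays, and the mixed signals of Ad-Med1 day 5 limit that array as a reference too.

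Mediator is the large complex that carries signals from transcription factors to RNA polymerase II. Med1 is the subunit that nuclear receptors bind through its LXXLL motifs, and in liver it serves the receptors that drive fatty acid oxidation and xenobiotic metabolism. Adult hepatocytes rest outside the cell cycle but return to it after loss of liver mass or with some nuclear receptor ligands, passing through DNA synthesis and then mitosis. An intravenous adenovirus mostly infects hepatocytes, is taken up in large part by Kupffer cells, the resident macrophages of the liver, and brings on an innate immune response of its own.

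Med1 RNA was higher on Ad-Med1 day 3 with each of the 3 probes that were detected. Probe ILMN_2658227 read 11.16 against a signal not detected in Ad-LacZ (5.94), at least 20.9-fold higher. ILMN_3106388 read 9.35 against 7.27, which is 4.23-fold higher, and ILMN_1220563 read 9.97 against 7.98, which is 3.97-fold. The last of these read 9.25 on Ad-LacZ day 5, against which Ad-Med1 day 3 was higher by only 0.71. Neither of 2 further Med1 probes was detected on any array. The sources used here do not say which probes lie in the sequence that the virus carries, so the virus's Med1 and the gene of the mouse are not separated. Of 28 Mediator subunits detected, 2 were at least 2-fold higher (Med1 and Med18, at 9.78 against 8.28) and 1 was lower (Med10, 8.20 against 9.44), with a median difference of -0.17. For Med18 Ad-LacZ day 3 was the low array, with 9.44 on Ad-Med1 and 9.51 on Ad-LacZ at day 5. Against Ad-LacZ day 5 its difference was 0.27.

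Over the whole comparison, 1576 genes had at least 2-fold more signal in Ad-Med1 (17.4%) and 1085 had a signal at least 2-fold lower (12.0%). These shares of all genes are the background for every list count of higher and lower genes below. By probes the counts were 2856 higher (18.3%) and 2287 lower (14.7%). The median over genes was -0.03 and the quartiles were -0.57 and 0.63. Of the higher genes, 859 were not detected in Ad-LacZ, and 338 of these stayed past 2-fold when set against the lowest detected signal. Of the lower genes, 272 were not detected in Ad-Med1, with 157 past 2-fold in the same way. Among the 7415 genes detected on both arrays, 717 were higher (9.67%) and 813 lower (11.0%), so the excess of higher genes lay among those that the dimmer array did not detect. Under 2 scalings to each array's median, the median of all genes moved to 1.14 and 1.0, and under scaling to the probes detected on all 4 arrays it moved to -0.25. The sign of a group whose median is smaller than such a shift is therefore set by the scaling, and for the groups below the range of the median relative to all genes over 6 scalings is given where a direction is stated.

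**Figure D1:**
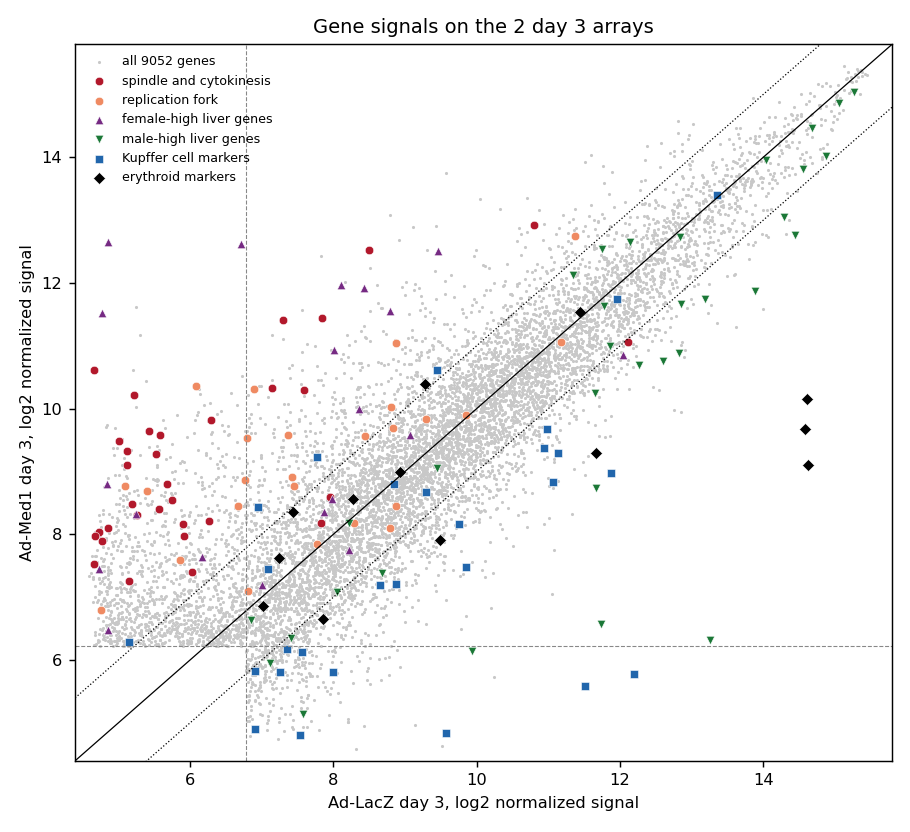
Log2 normalized signal of each of the 9052 genes on Ad-LacZ day 3 (horizontal axis) and Ad-Med1 day 3 (vertical axis), with members of 6 gene lists marked. The solid line is equality, the dotted lines are 2-fold, and the dashed lines are the lowest detected signal of each array. Of 33 spindle genes 30 lie above the upper dotted line, many left of the dashed line where Ad-LacZ did not detect them. Of 28 Kupffer cell markers 19 lie below the lower dotted line and 4 above the upper one. Of 13 erythroid markers 6 lie below, the haemoglobin genes Hba-a1, Hbb-bt and Hbb-bs far below, and 1 above.

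The day 5 arrays were used to describe which day 3 array stood apart from the other 3. They also differ from day 3 in time, so a change between the days and an unusual day 3 library cannot be told apart. For 721 of the 1576 higher genes (45.7%) the Ad-LacZ day 3 array alone stood at least 2-fold below the other 3, for 91 (5.77%) the Ad-Med1 day 3 array alone stood above the other 3, for 59 (3.74%) both held, and for 705 (44.7%) neither. For the 1085 lower genes, Ad-LacZ day 3 alone was the high array in 202 (18.6%) and Ad-Med1 day 3 alone the low array in 54 (4.98%). Both held in 10 (0.922%) and neither in 819 (75.5%). Further probes of the same gene repeated these patterns unequally. Where Ad-LacZ day 3 was the low array, 73 of 268 further probes (27.2%) showed that array at least 2-fold below the rest, and where Ad-Med1 day 3 was the high array, 38 of 53 (71.7%) showed it above the rest. With Ad-LacZ day 5 in place of Ad-LacZ day 3, a comparison that keeps the Ad-Med1 day 3 array, 841 genes were at least 2-fold higher (9.26%) and 603 lower (6.64%), 508 of the 1576 higher genes were still 2-fold higher, and 278 of them were below 0. Of the 1085 lower genes, 371 were still 2-fold lower and 117 were above 0. Both Ad-Med1 arrays stood at least 2-fold above both Ad-LacZ arrays in 220 genes (2.43%) and below them in 219 (2.42%).

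Genes of mitosis were higher in Ad-Med1 at day 3 as a body, and for most of them the Ad-Med1 day 3 array was the highest of the 4. Of 33 spindle and cytokinesis genes detected, 30 were at least 2-fold higher and 1 was lower, against 17.4% and 12.0% of all genes, and the median difference was 3.17. Of 17 mitotic kinases and cyclins, 14 were higher and none lower, with a median of 2.67, and of 22 genes of chromosome condensation and cohesion 19 were higher and none lower, with a median of 2.86. Ad-LacZ day 3 detected 9, 5 and 9 of these genes, and with the detection floor (an undetected signal replaced by the dimmest detected one) the medians were 1.77, 1.17 and 2.23. Against Ad-LacZ day 5 the medians were 1.88, 1.75 and 1.75. Relative to the median of all genes, the 3 medians stayed above 0 under each of 5 other scalings, at lowest 1.17 for spindle genes, 0.90 for kinases and 1.79 for condensation. Of the 63 higher genes in these lists, 26 had Ad-LacZ day 3 below and Ad-Med1 day 3 above the rest, in 23 only Ad-Med1 day 3 stood apart, in 5 only Ad-LacZ day 3 did, and in 9 neither.

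Prc1, which bundles the antiparallel microtubules of the dividing cell's midzone, had 12.52 on Ad-Med1 day 3 and 8.50 on Ad-LacZ day 3, a 16.3-fold difference, with 10.85 and 10.29 on the day 5 arrays of the same viruses. Nusap1, which stabilises spindle microtubules near chromosomes, read 11.41 against 7.30, with 9.73 and 9.17 at day 5, while its second probe was detected on Ad-Med1 day 3 alone and there lay by 0.11 above the lowest detected signal of Ad-LacZ. In both, the high array was Ad-Med1 day 3, the low array was Ad-LacZ day 3, and the day 5 pair lay between them. Spc25, a subunit of the kinetochore's Ndc80 complex, read 11.43 against 7.84 (12.1-fold). Stmn1, which destabilises microtubules, read 10.61 against an undetected signal, at least 14.2-fold. Kif23, the motor of the central spindle, was the exception at 11.06 against 12.12, while of its 2 further probes 1 was higher by 2.66 and the other, not detected in Ad-LacZ, by at least 0.80.

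Cdk1, the kinase that starts mitosis, read 11.10 against 7.31 (13.9-fold), with 9.72 and 9.38 at day 5. The checkpoint kinase Bub1b read 10.22 against 6.81 (10.7-fold) and the centrosome kinase Aurka 10.23 against an undetected signal (at least 10.9-fold). Plk1, which drives mitotic entry and exit, read 10.91 against 7.56, but at day 5 the order was the other way, with 8.54 in Ad-Med1 and 9.80 in Ad-LacZ. Among genes that shape chromosomes, Top2a, which untangles replicated DNA, was at least 11.6-fold higher, Cdca2, which brings a phosphatase to chromatin, at least 11.1-fold, and Esco2, which acetylates cohesin, at least 9.68-fold. Birc5, or survivin, of the chromosomal passenger complex, read 11.31 against 8.43 (7.39-fold). The cohesin subunit Smc1a, which chromosomes also need outside mitosis, read 10.89 and 10.99, and its further probes differed by 0.12 and 1.12. From a separate cytoskeleton list, the tubulin Tubb6 read 12.24 against 8.51 (13.3-fold) and Lmnb1, a lamin of the nuclear envelope, 10.74 against 8.62 (4.34-fold). They were leading members of a list that was mixed. Of its 44 detected genes, 12 were at least 2-fold higher and 8 lower, with a median of 0.19. That median was 0.11 to 0.23 relative to all genes over the scalings, and -0.14 against Ad-LacZ day 5.

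Promoters of the mitosis genes are shown because many of them hold short words that the lists did not use. Mitotic promoters are known for the cell cycle genes homology region (CHR), the word TTTGAA or TTCGAA that MuvB complexes bind, and for CCAAT boxes, which NF-Y binds, while promoters of replication genes carry E2F sites, searched as TTTGGCGC, TTTGCCGC, TTTCGCGC and TTTCCCGC. Every word was searched on both strands in RefSeq promoter windows of GRCm38.p6, from 250 bases before to 50 after each gene's start, and matches may share bases. The windows below are written 5′ to 3′ on the gene's strand with matches in capitals. Prc1 (chr7:80294201-80294500, plus strand) holds 1 CCAAT box and 1 CHR, Cdk1 (chr10:69352863-69353162, minus strand) 3 CCAAT boxes, 2 CHR and 1 E2F word, and Mcm6 (chr1:128359656-128359955, minus strand), a replication gene described further on, 2 CCAAT boxes and 3 E2F words of which a pair on opposite strands overlaps.
Prc1: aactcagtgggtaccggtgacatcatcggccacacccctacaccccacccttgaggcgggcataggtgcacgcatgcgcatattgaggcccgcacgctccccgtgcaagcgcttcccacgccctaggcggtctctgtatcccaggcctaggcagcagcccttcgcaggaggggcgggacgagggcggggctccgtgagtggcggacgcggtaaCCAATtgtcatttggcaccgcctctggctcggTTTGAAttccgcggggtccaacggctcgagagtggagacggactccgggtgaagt
Cdk1: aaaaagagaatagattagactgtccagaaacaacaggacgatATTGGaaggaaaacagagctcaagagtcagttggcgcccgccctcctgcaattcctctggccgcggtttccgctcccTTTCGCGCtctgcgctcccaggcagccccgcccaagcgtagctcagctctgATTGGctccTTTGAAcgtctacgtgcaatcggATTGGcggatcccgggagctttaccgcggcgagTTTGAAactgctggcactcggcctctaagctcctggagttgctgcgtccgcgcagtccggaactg
Mcm6: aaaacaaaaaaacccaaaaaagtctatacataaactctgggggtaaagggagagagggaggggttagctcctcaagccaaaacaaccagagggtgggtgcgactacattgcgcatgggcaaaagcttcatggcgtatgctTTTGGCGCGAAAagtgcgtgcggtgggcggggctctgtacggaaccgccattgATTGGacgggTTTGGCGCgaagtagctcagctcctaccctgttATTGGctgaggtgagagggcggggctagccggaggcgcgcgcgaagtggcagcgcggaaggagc
A CHR lay in 39 of the 58 promoters found for the 3 mitosis lists (67.2%), against 19.4% of all 27025 promoters, 14.5% of the genes compared at day 3, 19.8% of the higher and 12.3% of the lower genes. CCAAT lay in 38 of the 58 (65.5%), in 21 of the 35 promoters of the 2 replication lists described next (60.0%), and in 37.9% of all promoters, so it did not set mitosis apart from replication. An E2F word lay in 10 of the 35 replication promoters (28.6%) and in 8 of the 58 mitosis promoters (13.8%), against 2.32% of all and 4.25% of the genes compared at day 3. Within replication these were 8 of 14 licensing promoters (57.1%) and 2 of 21 fork promoters (9.52%). The windows of Nusap1 and Lig1 hold none of these words. A match is a word in the reference, and factor binding was not measured.

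**Figure D2:**
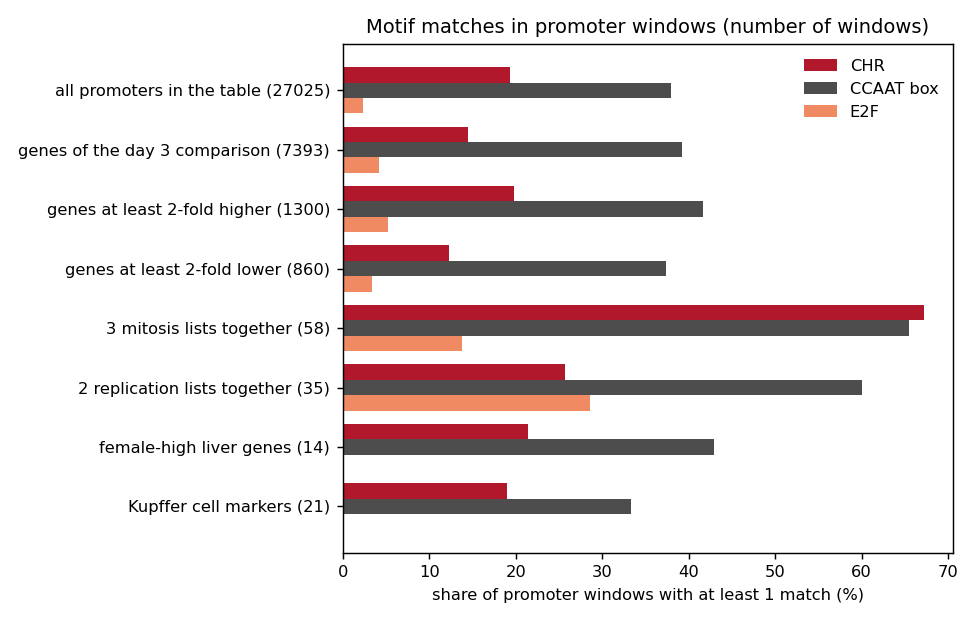
Share of RefSeq promoter windows with at least 1 match to the CHR, CCAAT or E2F words (horizontal axis, percent) in sets of genes, with the number of windows in parentheses. The mitosis lists stand at 67.2% for CHR and 13.8% for E2F, and the replication lists at 25.7% and 28.6%.

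Genes of DNA replication were higher too. Of 18 genes of licensing and the replicative helicase, 13 were at least 2-fold higher and 1 was lower, with a median of 1.67 (0.75 with the detection floor), and of 25 fork genes 16 were higher and none lower, with a median of 1.38 (1.21 with the detection floor, close to the 1.17 of mitotic kinases). Against Ad-LacZ day 5 the medians were 1.09 and 0.82, and relative to all genes they lay at 0.71 to 1.71 and 1.06 to 1.43 over the 6 scalings. Mcm6, a subunit of the replicative helicase, read 10.19 against 7.08 (8.58-fold), and its highest array was Ad-Med1 day 5 at 10.91. Mcm5 of the same ring read 10.72 against 8.35, and Mcm2 9.03 against an undetected signal (at least 4.77-fold). Dbf4, the activator of the kinase that fires origins, read 10.19 against 7.60 (6.05-fold). Mcm10, which joins the helicase to polymerase, went the other way at 11.65 against 13.27, and Ad-LacZ day 3 was the high array for it, since the day 5 arrays read 11.75 and 11.73.

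At the fork, Lig1, which seals Okazaki fragments, read 10.31 against 6.90 (10.6-fold), and Uhrf1, which brings the maintenance DNA methyltransferase to new DNA, 10.36 against an undetected signal (at least 12.0-fold). That methyltransferase, Dnmt1, read 9.53 against 6.80 and Rfc4, a clamp loader subunit, 9.58 against 7.37. The polymerase delta subunit Pold2 was near level at 8.46 and 8.88. Of 27 genes that supply nucleotides, 9 were higher and 2 lower, among them the ribonucleotide reductase subunits Rrm1 (10.74 against 8.16) and Rrm2 (9.70 against 7.36) and thymidylate synthase Tyms (10.93 against 9.07). Rrm1 and Rrm2 read nearly the same on both Ad-LacZ arrays, 8.16 and 8.40 for Rrm1 and 7.36 and 7.16 for Rrm2. Ad-LacZ day 3 was therefore not low beside Ad-LacZ day 5 for these 2 genes. Of the 29 higher genes in the licensing and fork lists, 11 had Ad-LacZ day 3 alone as the low array (37.9%, against 45.7% of all higher genes). In 2 Ad-Med1 day 3 alone was the high array (6.90%, against 5.77%), in 1 both held, and in 15 neither (51.7%, against 44.7%).

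Replication-dependent histone genes, whose RNAs accumulate in S phase and mostly lack poly(A) tails, were higher at day 3. Of 39 detected, 29 were at least 2-fold higher and 1 lower, the median was 1.59, and 32 were detected on Ad-LacZ day 3 as well. Relative to all genes the median was 1.31 to 1.62 over the 6 scalings. Against Ad-LacZ day 5 it was 0.50, with 8 genes at least 2-fold higher and 8 lower. H2bc21 read 10.36 against 6.96, H3c6 11.03 against 7.63 and H3c7 10.09 against an undetected signal (at least 9.97-fold). The day 5 arrays had the opposite order, with 8.04 in Ad-Med1 and 9.28 in Ad-LacZ for H2bc21 and 8.52 and 10.15 for H3c6, although the second probe of H2bc21 differed by 0.34 at day 5. H4c6 read 9.92 against 6.86 at day 3 but 9.91 on Ad-LacZ day 5, so it showed no difference from that array. H2ac18 was lower at 11.30 against 12.70, while 2 further probes of it differed by -0.67 and 0.22. These genes are near copies of each other, so a probe may read several of them.

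DNA repair genes were also higher: of 21 detected, 14 were at least 2-fold higher and 1 lower with a median of 1.70, Ad-Med1 day 3 stood above the other 3 arrays in 6 and Ad-LacZ day 3 below them in none. Only 11 of the 21 were detected on Ad-LacZ day 3, and the median was 0.44 with the detection floor and 0.38 to 1.73 relative to all genes over the 6 scalings. Rad54b, a recombination ATPase, read 9.50 against 7.31, the helicase Blm 9.65 against 7.68, and Brca2 was at least 2.85-fold higher. Atm, the kinase that senses double-strand breaks, was the lower gene at 8.54 against 9.60, and 2 further probes differed by -1.28 and, undetected in Ad-Med1, by a bound of -1.26. Among regulators, 5 of 12 E2F factors, pocket proteins and mitotic regulators were at least 2-fold higher and none lower, with a median of 0.91. Of 11 G1 cyclins and kinases, 6 were higher and 1 lower, with a median of 1.46. The shares of all genes were 17.4% and 12.0%, and against Ad-LacZ day 5 the 2 medians were 0.5 and 0.6. Foxm1, which activates mitotic genes, was at least 5.11-fold higher, E2f1 read 9.26 against 7.45, and Rbl1, the pocket protein p107, was at least 3.19-fold higher. Cyclin Ccne1, which starts S phase, was at least 4.81-fold higher, whereas cyclin Ccnd2 was at least 4.42-fold lower and low on both Ad-Med1 arrays (undetected and 6.57, against 8.36 and 8.79). Id1, an inhibitor of differentiation factors, read 10.22 against 7.73.

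Cell cycle inhibitors and p53 targets were split. Of 20 detected, 7 were at least 2-fold higher and 3 lower, with a median of 0.82, and Gadd45a, a stress gene, was at least 9.73-fold higher. Its relative Gadd45g was lower at 11.36 against 13.36, and Ddit4, an inhibitor of mTORC1, lower at 8.17 against 10.94. For the latter pair Ad-LacZ day 3 was the high array, as Ad-LacZ day 5 read 11.31 and 8.40.

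**Figure D3:**
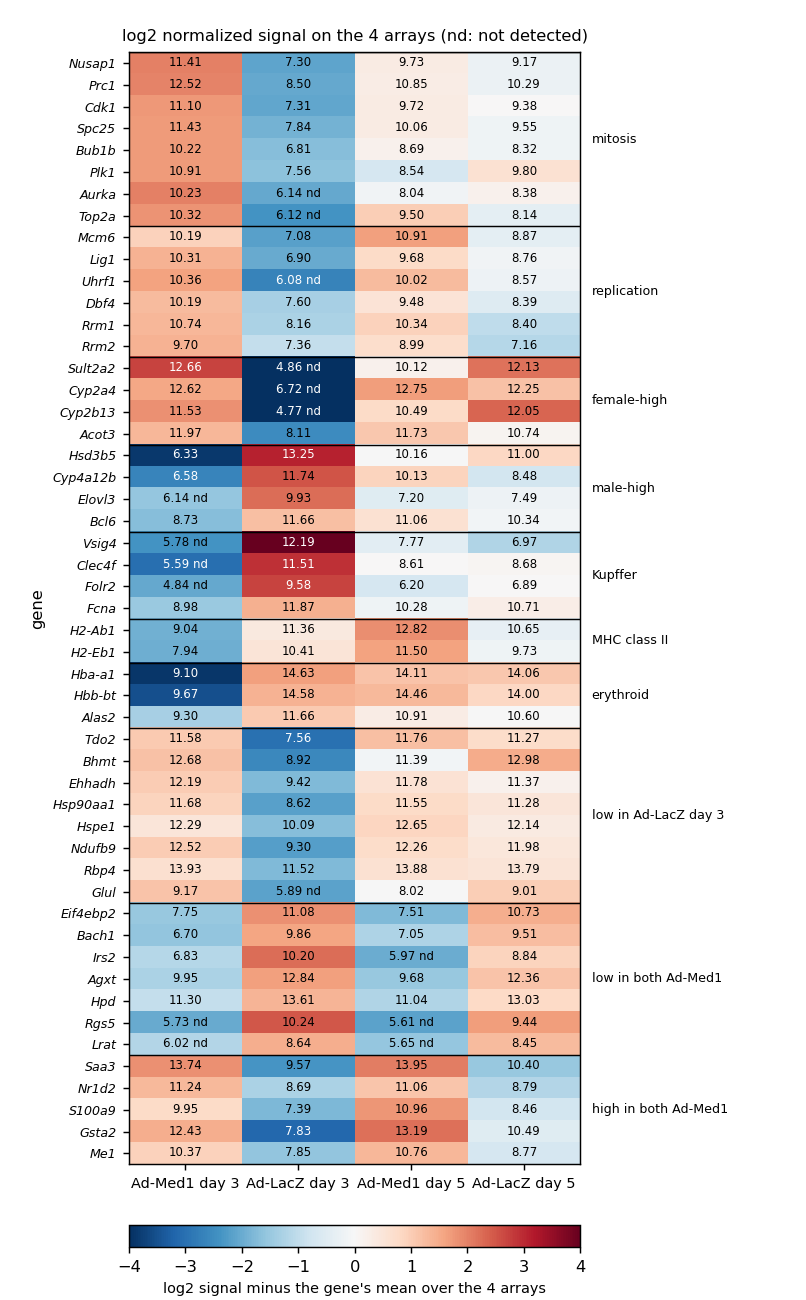
Log2 normalized signal of selected named genes on the 4 arrays, printed in each cell and coloured by its distance from the gene's mean over the arrays. In mitosis genes the Ad-Med1 day 3 column is the red one, in the block low in Ad-LacZ day 3 the second column is the blue one, and in the last 2 blocks the Ad-Med1 columns differ from both Ad-LacZ columns.

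Several of the hepatocyte and housekeeping genes with large differences had Ad-LacZ day 3 as the low array. They were named for the size of their difference. In several lists the share of genes with this pattern was close to or below the 8.62% of all genes: 1 of 25 hepatocyte identity, 4 of 46 amino acid, 2 of 52 cytosolic ribosomal, 5 of 71 mitochondrial ribosomal and 3 of 36 proteasome genes. The share was larger in other lists, with 10 of 35 cytochrome P450, 5 of 22 MHC class I and immunoproteasome, and 8 of 48 conjugating enzyme genes. Tdo2, which opens the ring of tryptophan, read 11.58 on Ad-Med1 day 3, 7.56 on Ad-LacZ day 3 and 11.76 and 11.27 at day 5. Bhmt, which remethylates homocysteine with betaine, read 12.68, 8.92, 11.39 and 12.98 in the same order, and the amino acid transporter Slc38a4 12.89, 9.11, 12.37 and 12.19. Rbp4, the plasma carrier of retinol, read 13.93 against 11.52 with 13.88 and 13.79 at day 5. Glul, the glutamine synthetase of cells around central veins, read 9.17 against an undetected signal with 8.02 and 9.01 at day 5. The same pattern held in 7 of 29 heat shock proteins, of which 12 were at least 2-fold higher and none lower with a median of 0.65. Among them Hsp90aa1 read 11.68 against 8.62 and Hspe1, the mitochondrial co-chaperonin, 12.29 against 10.09, while the other arrays read 11.28 to 11.55 and 12.14 to 12.65. Cct5, of the cytosolic chaperonin, was at least 4.34-fold higher, with 8.86 and 8.60 at day 5.

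Mitochondrial and ribosomal genes held a few such members within groups whose medians were near 0. Of 69 respiratory chain and ATP synthase genes, 11 were at least 2-fold higher and 1 lower, the median was 0.09, and in 9 Ad-LacZ day 3 was below the other 3 arrays. Ndufb9 of complex I read 12.52 against 9.30, and Ndufb4 9.90 against an undetected signal (at least 8.71-fold). The ATP synthase subunit Atp5a1 read 13.33 against 10.04, but its second probe differed by -0.41. Of 52 cytosolic ribosomal proteins, 2 were higher, Rps3a1 at 11.60 against 9.28 among them, and 1 was lower, with a median of 0.16. Of 36 proteasome genes, 4 were higher and 1 lower with a median of -0.01, and Psmd6 was at least 4.24-fold higher with 8.80 and 9.23 at day 5. No value here shows what the low probes of Ad-LacZ day 3 share, and the part of that array's dimness in them was not tested.

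**Figure D4:**
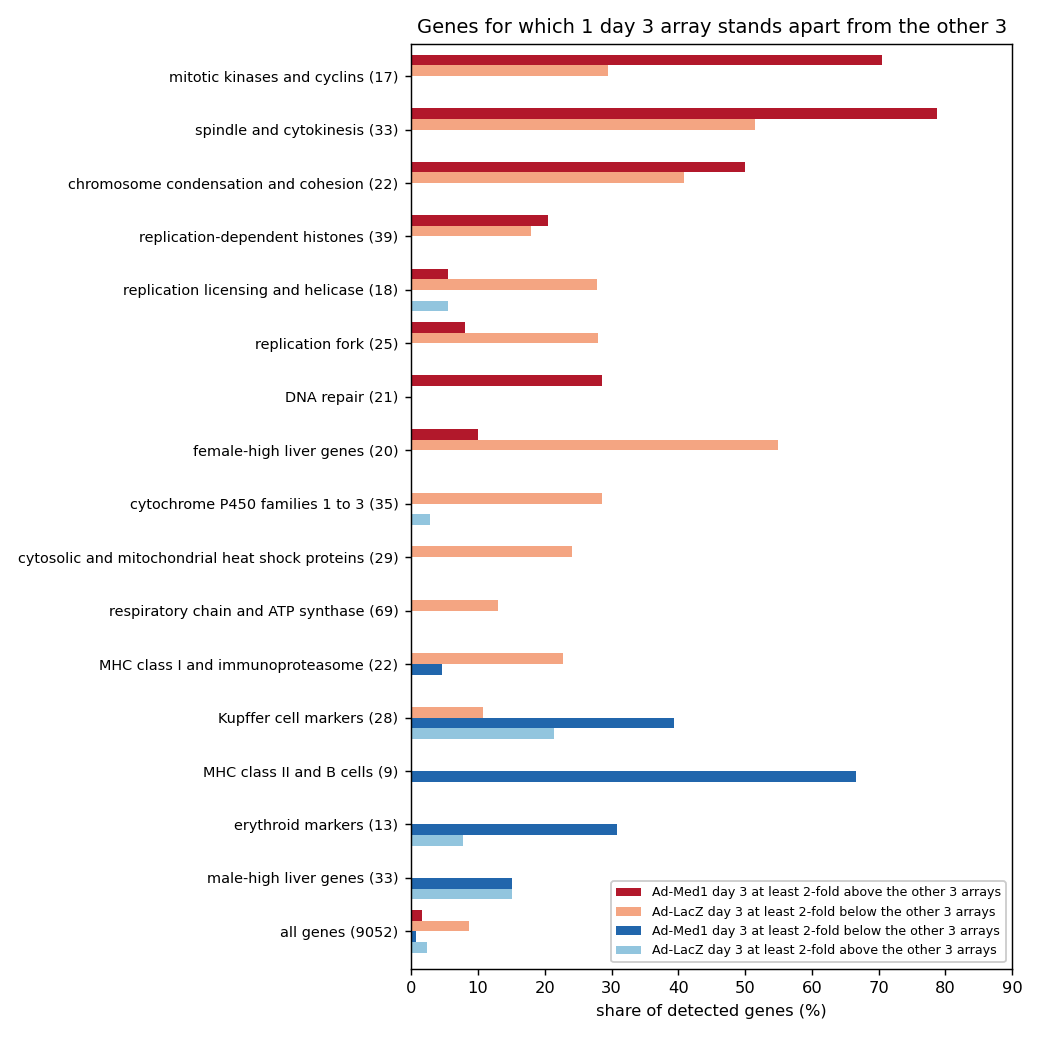
Share of the detected genes of each list (horizontal axis, percent; number of genes in parentheses) for which 1 day 3 array stood at least 2-fold apart from all 3 other arrays, with all 9052 genes at the bottom. Mitosis lists have long bars for a high Ad-Med1 array and also for a low Ad-LacZ array (17 of 33 spindle genes). Female-high and heat shock lists have long bars for a low Ad-LacZ array, and Kupffer cell and MHC class II lists for a low Ad-Med1 array.

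Genes known to differ between the sexes in mouse liver, where the male pattern of growth hormone release sets their levels, differed in the direction that Xist and Eif2s3y did. Of 20 female-high genes detected, 14 were at least 2-fold higher in Ad-Med1 and 1 was lower, with a median of 2.74, and of 33 male-high genes none was higher and 17 were lower, with a median of -1.06. Ad-LacZ day 3 detected 12 of the 20 female-high genes. Of those 12, 6 were higher, with a median of 1.10, and the median of all 20 was 1.59 with the detection floor. Sult2a2, a sulfotransferase, read 12.66 against an undetected signal (at least 58.9-fold), Cyp2a4, a steroid hydroxylase, was at least 57.2-fold higher and Cyp2b13, another cytochrome, at least 26.9-fold. Ad-LacZ day 3 was the low array for all of these, with 12.13, 12.25 and 12.05 on Ad-LacZ day 5. Acot3, a peroxisomal thioesterase, read 11.97 against 8.11. Against Ad-LacZ day 5 the female-high median was -0.26 and the male-high median -0.43.

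Among male-high genes, Hsd3b5, a steroid dehydrogenase, read 6.33 on Ad-Med1 day 3 and 13.25 on Ad-LacZ day 3, 121-fold lower, with 10.16 and 11.0 at day 5. Here each day 3 array stood apart, Ad-Med1 as the lowest and Ad-LacZ as the highest of the 4. Cyp4a12b, a fatty acid hydroxylase, read 6.58 against 11.74 (35.7-fold lower), and Elovl3, a fatty acid elongase, was at least 13.1-fold lower. Bcl6, the repressor that holds down female genes in male liver, read 8.73 against 11.66 (7.62-fold lower). The urinary protein gene Mup20 was no part of this at 12.12 against 11.35. Relative to the median of all genes, the male-high median lay between -1.54 and -0.82 under the 6 scalings and the female-high median between 1.29 and 2.77.

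Markers of Kupffer cells were lower in Ad-Med1. Of 28 detected, 19 were at least 2-fold lower and 4 higher, with a median of -1.45, and 18 were detected in Ad-Med1 against 27 in Ad-LacZ. Vsig4, the complement receptor of these cells, was not detected in Ad-Med1 (5.78) and read 12.19 in Ad-LacZ, at least 62.8-fold lower, with 7.77 and 6.97 at day 5. Clec4f, their defining lectin, was likewise undetected against 11.51, with 8.61 and 8.68 at day 5. Of 5 defining markers none was detected on Ad-Med1 day 3, 4 were on Ad-LacZ day 3, 4 on Ad-Med1 day 5 and 3 on Ad-LacZ day 5. Folr2, a folate receptor, was at least 10.3-fold lower, and Fcna, a ficolin, read 8.98 against 11.87. For Vsig4, Clec4f and Folr2 Ad-LacZ day 3 was the high array, and Ad-Med1 day 3, where they were undetected, was also the low one. Over the list Ad-Med1 day 3 was the low array in 11 genes and Ad-LacZ day 3 the high one in 6. The cathepsin Ctss and the regulator Id3, both also found in other cells, were higher at 8.43 against 6.95 and 9.24 against 7.78. Summed over the list, log2 signal was 14.44 in Ad-Med1 and 15.33 in Ad-LacZ, and the median was -1.01 against Ad-LacZ day 5 and -1.42 to -1.01 relative to all genes over the 6 scalings.

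MHC class II genes, which present antigen to T cells, were lower beside them. Of 9 genes of class II and B cells detected, 7 were at least 2-fold lower and 1 higher, the median was -1.97, and Ad-Med1 day 3 was the low array in 6. Relative to all genes the median was -2.05 to -1.41 over the 6 scalings. H2-Ab1 read 9.04 against 11.36 and H2-Eb1 7.94 against 10.41, and at day 5 the order was turned, with 12.82 against 10.65 and 11.5 against 9.73. H2-DMb2, a chaperone of class II loading, was at least 4.07-fold lower and the costimulator Cd86 at least 4.32-fold. H2-Aa, the alpha chain partner of H2-Ab1, did not share the difference at 9.37 and 9.03. Of 5 defining T and NK cell markers, Ad-LacZ detected 1 and Ad-Med1 none. Interferon response genes, which viral infection commonly raises, had 6 of 40 at least 2-fold higher, against 17.4% of all genes, 1 lower and a median of 0.20. Of the 34 detected on both arrays 1 was higher and 1 lower, and against Ad-LacZ day 5 none was higher, 9 were lower and the median was -0.41.

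Endothelial and stellate cell genes were lower by smaller steps. Of 33 endothelial markers, all detected on both arrays, 14 were at least 2-fold lower and 1 higher with a median of -0.88, and of 35 stellate cell and matrix genes 11 were lower and 1 higher with a median of -0.54. Both medians were above 0 under the pair of scalings that moved all genes upward, and relative to the median of all genes they stayed between -0.85 and -0.54 and between -0.63 and -0.42 under all 6. The adhesion molecule Icam2 read 7.24 against 9.02, the sinusoidal protein Oit3 8.72 against 10.33 and von Willebrand factor, Vwf, 6.98 against 8.55, while the receptor Notch1 was higher at 9.68 against 8.04. Rgs5, a pericyte regulator of G proteins, was undetected on both Ad-Med1 arrays and read 10.24 and 9.44 on the Ad-LacZ arrays, at least 16.3-fold lower at day 3. Lrat, which makes the retinyl esters that stellate cells store, had the same pattern (8.64 and 8.45, at least 5.34-fold lower). The contractile Myl9 read 6.23 against 7.83. Collagen Col3a1 was at least 3.72-fold higher, but Ad-LacZ day 3 was its low array, with 8.40 and 9.33 at day 5.

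Blood cell transcripts differed in both directions. Haemoglobin was low on Ad-Med1 day 3 alone: Hba-a1 read 9.10 against 14.63, Hbb-bt 9.67 against 14.58 and Hbb-bs 10.15 against 14.61, while the day 5 arrays read 14.00 to 14.74 for these genes. Alas2, the erythroid enzyme of haem synthesis, read 9.30 against 11.66, and the transferrin receptor Tfrc was higher at 10.39 against 9.28, with 0.59 for its second probe. Over 13 erythroid markers 6 were lower and 1 higher, with a median of -0.17. The platelet chemokines Pf4 and Ppbp were at least 5.18-fold and 2.93-fold higher, yet 3 of 8 platelet markers were lower and the median, 0.86, was -0.19 with the detection floor.

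Neutrophil markers were higher in 11 of 15 and lower in 2, against 17.4% and 12.0% of all genes. Only 5 of the 15 were detected on both arrays, and of these 3 were higher and 1 lower. The median of the 15 was 1.49 and became 0.24 with the detection floor. Relative to all genes it ranged from -0.07 to 1.53 over the 6 scalings, so its sign depended on the scaling. The summed log2 signal was 13.27 against 12.02. Ad-Med1 detected all 6 defining markers, and Ad-LacZ 2 of them, but the lowest detected signal was 6.22 on Ad-Med1 and 6.78 on Ad-LacZ, and 2 of the 6 lay under 6.78 on Ad-Med1. S100a9 and S100a8, the calprotectin subunits, read 9.95 against 7.39 and 10.72 against 8.77. Mpo, the myeloperoxidase of granules, read 9.69 on Ad-Med1 day 3, was undetected on both Ad-LacZ arrays and read 6.86 on Ad-Med1 day 5, at least 7.51-fold higher at day 3. Fpr2, a receptor for bacterial peptides, was lower at 7.01 against 9.01. Of 33 acute phase genes, 9 were higher and none lower, and the median was 0.00. Saa3 read 13.74 against 9.57 (18.1-fold) and Orm2, the orosomucoid 2 gene, 14.03 against 11.60.

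**Figure D5:**
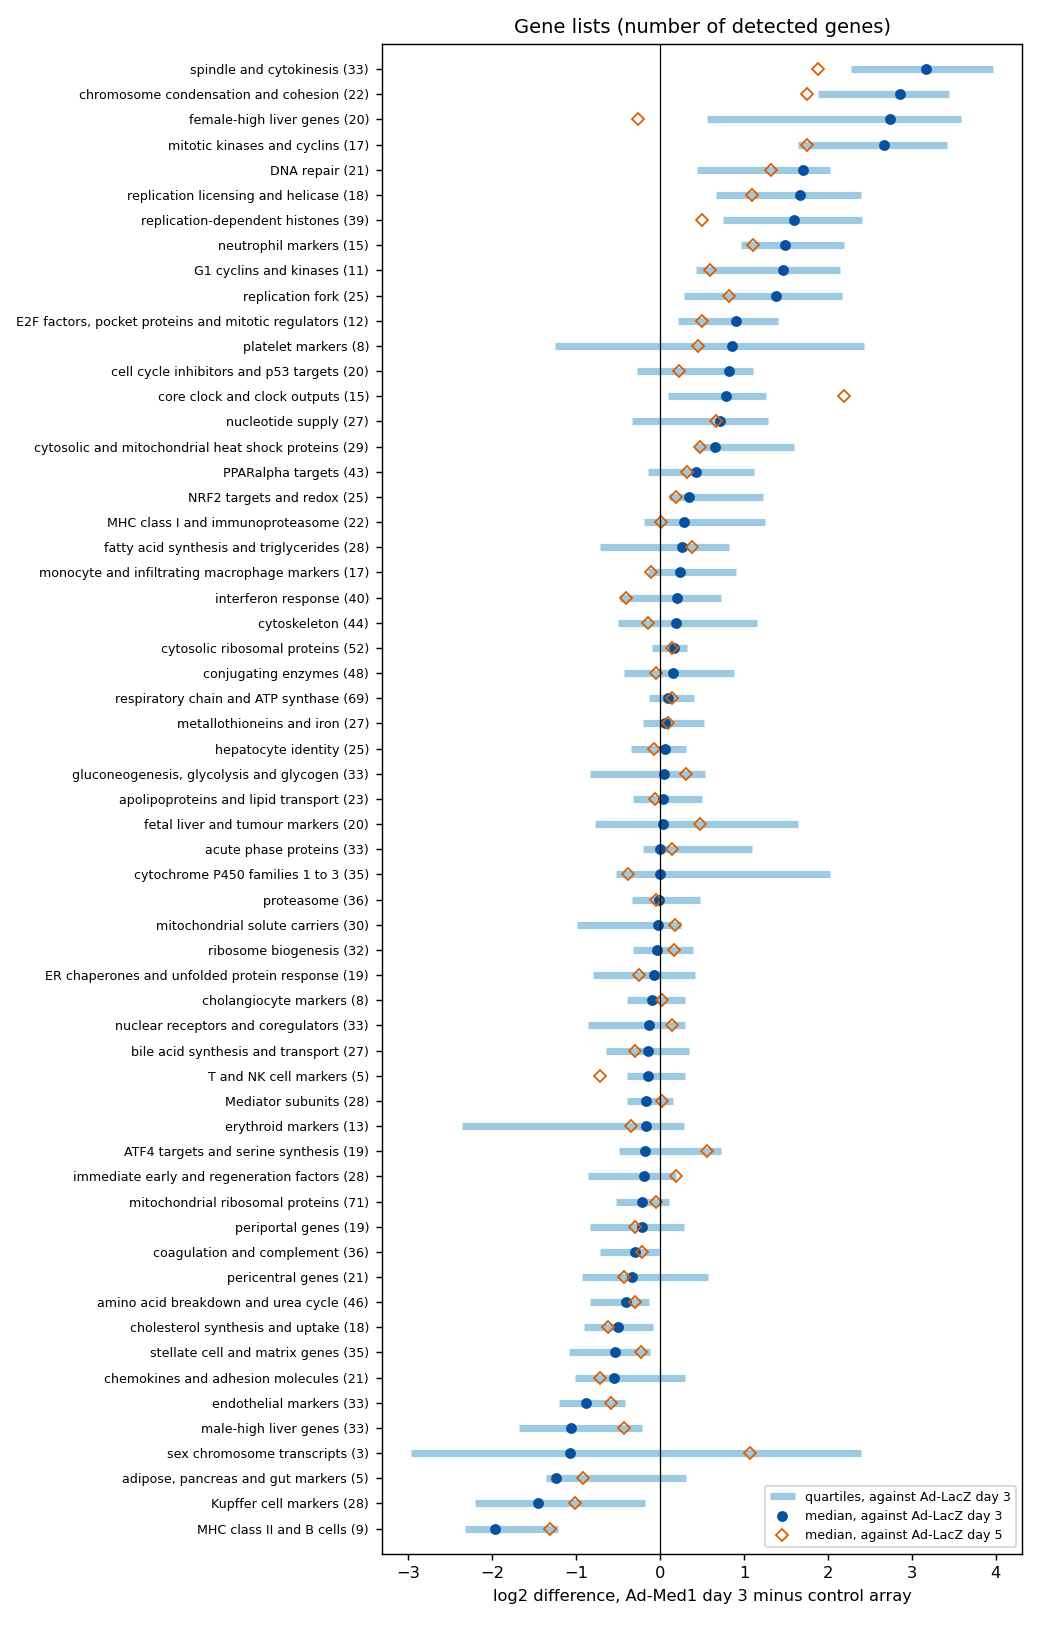
Median difference of each gene list (filled points, log2, Ad-Med1 day 3 minus Ad-LacZ day 3) with the quartiles of its members (bars), and the same median taken against Ad-LacZ day 5 (open diamonds). Mitosis lists stay to the right with either control, the female-high list goes from 2.74 to -0.26, and Kupffer cell and MHC class II lists lie at the left.

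In metabolism single genes differed widely within groups whose medians were mostly small. The glutathione transferases Gsta2 and Gsta1 read 12.43 against 7.83 and 12.02 against 8.16, and both Ad-Med1 arrays were above both Ad-LacZ arrays (13.19 and 10.49 for Gsta2 at day 5). These paralogs are alike enough that probes may read both. Of 43 targets of PPARalpha, the fatty acid receptor that Med1 serves, 12 were at least 2-fold higher and 4 lower, against 17.4% and 12.0% of all genes. The median was 0.43, or 0.04 to 0.47 relative to all genes over the 6 scalings, and 6 targets had Ad-LacZ day 3 as the low array. Against Ad-LacZ day 5, 5 were higher and 1 lower, beside 9.26% and 6.64% of all genes, with a median of 0.32. Ehhadh, of peroxisomal beta-oxidation, read 12.19 against 9.42 with 11.78 and 11.37 at day 5, and Pdk4, which spares glucose, read 9.71 against 6.82. Decr2, a peroxisomal reductase, was lower at 8.67 against 10.67. Of 28 genes of fatty acid synthesis and triglycerides, 7 were higher and 6 lower. Elovl6, a fatty acid elongase, read 13.36 against 10.70 with 11.54 and 10.95 at day 5, and the malic enzyme Me1 10.37 against 7.85 with 10.76 and 8.77.

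Amino acid breakdown and the urea cycle leaned lower. Of 46 genes, 10 were at least 2-fold lower and 5 higher, against 12.0% and 17.4% of all genes. The median was -0.41, or -1.0 to -0.38 relative to all genes over the 6 scalings. Agxt, which detoxifies glyoxylate, read 9.95 against 12.84 (7.41-fold lower) with 9.68 and 12.36 at day 5, and Hpd, of tyrosine breakdown, read 11.30 against 13.61 with 11.04 and 13.03. In these 2 genes both Ad-Med1 arrays were low and both Ad-LacZ arrays high. The bile acid enzyme Cyp8b1, which sets the share of cholic acid, had the same order at 12.78 against 14.31, and 12.24 against 14.54 at day 5. So did Nsdhl, of sterol synthesis, at 8.35 against 10.64, though Idi1 of the same pathway was at least 6.10-fold higher with Ad-LacZ day 3 as the low array (10.14 on Ad-LacZ day 5). The serine enzyme Psat1 was at least 5.47-fold higher and Nampt, which makes NAD from nicotinamide, at least 13.4-fold.

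Several signalling and transcription regulators were among the named lower genes, while the list of gluconeogenesis, glycolysis and glycogen had 3 of 33 genes higher, 6 lower and a median of 0.05. Irs2, the insulin receptor substrate of liver, read 6.83 against 10.20 (10.4-fold lower), with an undetected signal and 8.84 at day 5. Eif4ebp2, which restrains translation below mTORC1, read 7.75 against 11.08 (10.1-fold lower) with 7.51 and 10.73, and Bach1, the haem-regulated repressor, 6.70 against 9.86 (8.90-fold lower) with 7.05 and 9.51. Crebbp, the acetyltransferase CBP that coactivates many factors, was undetected on both Ad-Med1 arrays and read 8.20 on each Ad-LacZ array, at least 3.95-fold lower. For these 4 genes the viruses separated on both days. Ppargc1a, the coactivator of the fasting response, read 6.58 against 9.29 (6.54-fold lower), whereas its target Pck1, of gluconeogenesis, was higher at 10.49 against 8.25, though its second probe differed by 0.56. Ppp1r3g, a glycogen-targeting subunit, read 7.05 against 11.05 but 8.34 against an undetected signal at day 5, so its order turned. The interleukin 6 receptor Il6ra read 8.94 against 11.51, with Ad-LacZ day 3 as the high array.

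Of 15 clock genes, 7 were at least 2-fold higher and 1 lower, against 17.4% and 12.0% of all genes. The median was 0.78, and it was 2.19 against Ad-LacZ day 5. Nr1d2, the repressor REV-ERB beta, read 11.24 against 8.69, with 11.06 and 8.79 at day 5, and the period gene Per2 10.70 against 9.40. Usp2, a clock-driven deubiquitinase, read 11.13 against 9.41 and was undetected on Ad-LacZ day 5. Nr1d1, the relative of Nr1d2, was lower at 7.53 against 8.75. The sources used here do not state the hour at which livers were taken, and its part in these differences was not tested.

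The probes of highest mean signal read alike on the 2 arrays, but they lie near the top of the scale, where differences are compressed. Serpina1b, an antitrypsin, read 15.30 and 15.45, and Gpx1, a selenium peroxidase, 15.32 and 15.41. Apoa2, an apolipoprotein, read 15.38 and 15.36, while its dimmer second probe read 13.19 against 10.93, 4.77-fold higher, with 12.74 and 12.98 at day 5. Of 25 hepatocyte identity genes, 3 were higher and 2 lower with a median of 0.06, which ranged from -0.88 to 0.09 relative to all genes over the 6 scalings. Of 71 mitochondrial ribosomal proteins, 7 were higher and 2 lower with a median of -0.22 (-0.29 to 0.04). Coagulation and complement genes had 1 of 36 higher and 7 lower, against 17.4% and 12.0% of all genes. Their median was -0.30, which lay between -0.94 and -0.27 relative to all genes.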

How the data were processed

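Liver RNA of 4 samples, 1 per group, was hybridised to Illumina mouse beadarrays. Trizol extraction, RNeasy clean-up with DNase I and MessageAmp biotin labelling were used, per the labels' protocols. The authors deposited a non-normalized table with a linear intensity and a detection p-value for each probe and array. The sources used here do not describe image and scanner processing.

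The deposited intensities were background-corrected with normexp (offset 16) and quantile normalized over the 4 arrays on the log2 scale with neqc of limma 3.58.1 in R 4.3.3, and this was tested on simulated data. Later steps used Python 3.11.15, numpy 2.4.6, pandas 2.3.3 and matplotlib 3.10.9. A probe was detected at a p-value under 0.01, a gene was its brightest probe by the mean over the arrays, and at least 2-fold counted as higher or lower. Of the probes, 34885 had 1 gene symbol in the platform annotation, 18 several and 10378 none, and 34807 symbols were updated through their gene identifier (GRCm38.p6). With 1 array a group no test was possible, and the number of arrays limits the precision.

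The naming rule took the genes with the largest differences or bounds, the leading and opposed members of each list, label checks and the brightest genes. It gave 291 genes, of which 137 are named. The members, lists and rule were chosen with earlier results of these data known. Alternatives were other scalings and background corrections, detection on both arrays, undetected signals at the lowest detected one, other probe summaries, a 3-fold limit and Ad-LacZ day 5 as the control.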

Additional observations from a re-analysis of the deposited data

Results flagged for a closer look

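Some differences between Ad-Med1 and Ad-LacZ had opposite signs on the 2 days, with 1 array a group, and the difference between the days was not tested. Medians at day 3 and day 5 were 1.59 and -1.23 for replication-dependent histones, -1.97 and 1.80 for MHC class II and B cell genes, and -1.07 and 1.68 for sex chromosome transcripts. The last list mixes Xist with Y-linked genes, and both of its medians are the values of Uty, so they give no common direction. Among dividing-cell genes, Plk1 differed by 3.35 and then -1.26, H2bc21 by 3.40 and -1.23, H3c6 by 3.40 and -1.63, and H4c6 by 3.06 and -1.68. Class II genes had the opposite order, with H2-Eb1 at -2.46 and 1.78, H2-Ab1 at -2.32 and 2.18, and H2-DMb2 at -2.42 and 1.70. Of the sex chromosome and sex-biased genes, Eif2s3y differed by -4.88 and 5.89, Uty by -1.07 and 1.68, Sult2a2 by 7.80 and -2.01, Cyp2b13 by 6.76 and -1.56, and Cyp4a12b by -5.16 and 1.64. The remaining genes were Bhmt at 3.76 and -1.60, Pf4 at 3.23 and -1.20, Idi1 at 3.95 and -1.72, and Ppp1r3g at -4.0 and 3.05. Differences of undetected probes are fitted values and depend on the background correction.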

How the results depend on the processing

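Against 1576 higher genes, median scaling gave 5130, no background correction 4551, detection on both arrays 717, Ad-LacZ day 5 as the control 841 and a 3-fold limit 882. Against 1085 lower genes, these gave 136 and 34 for the first 2 settings, 603 for the day 5 control and 332 for 3-fold, and scaling on the probes detected on all arrays, chosen after seeing the data, gave 1725. The share of higher among called genes was 59.2%, and became 97.4%, 99.3%, 46.9% (717 against 813) and, with scaling on detected probes, 38.4% (1075 against 1725). Med1 probe ILMN_1220563 differed by 3.39 with median scaling, 2.79 with no background correction and 0.71 with the day 5 control. ILMN_2658227 differed by 5.91, 4.61 (cyclic loess), 4.44, 4.60 (offset 50), 4.38 (undetected at the lowest detected signal) and 4.53 (detected probes), and ILMN_3106388 by 3.36 with median scaling. List medians turned to -0.26 for female-high genes (day 5 control), to 0.08, 0.14 and 2.05 for sex chromosome transcripts (median scaling, no background correction, day 5 control), to -1.57, -0.19 and -0.03 for platelet markers (both detected, lowest detected signal, detected probes), to 0.29 and 0.46 for endothelial markers and to 0.10 for adipose, pancreas and gut markers. With median scaling Med10 became 0.16, Atm 0.33, Uty 0.08 and Nr1d1 0.17, and with no background correction Med10 0.32, Kif23 0.15, Atm 0.47, Uty 0.14 and Nr1d1 0.27. The values of Uty under these settings are also the sex chromosome medians given above. The median over probes made Kif23 1.96. The day 5 control turned Gadd45g to 0.05, Bhmt to -0.30, Psmd6 to -0.37, Uty to 1.07, Cyp2b13 to -0.52, Ctss to -1.07, Col3a1 to -0.66, Idi1 to -0.75, Ppp1r3g to 1.76 and Nr1d1 to 0.14. The cause was not tested. No paired analysis was possible because the day 3 comparison has 1 array a side. Signal near background limits the genes undetected on the dimmer Ad-LacZ day 3 array. For them the folds written as at least a size are bounds, while counts, medians and log2 differences use fitted signals unless the detection floor is named.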
